A study of Rattus norvegicus with 8 samples.

Results

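The genes examined here encode enzymes that act on aflatoxin aldehydes, epoxides, quinones and related carbonyl compounds, together with Nfe2l2, the transcription factor known to regulate several of them. They were taken as every probe set, outside the array's controls, that the platform annotation assigns to 1 of 10 gene symbols: Akr7a3, Akr7a2, Ephx1, Ephx2, Nqo1, Nqo2, Cbr1, Akr1b1, Ptgr1 and Nfe2l2. A probe set is a group of short probes that measures 1 transcript or a few related ones. The annotation gave 17 probe sets of 8740 for 9 of the 10 genes, where it names 4736 genes in all, and no value is given for Nqo2. The data come from livers of 8 male Fischer 344 rats, an inbred strain, whose age is labelled 6 with no unit, with 1 array for each rat (array A of the Affymetrix Rat Genome U34 set). The 4 rats of the treated group were gavaged with 0.3 mmol of D3T (3H-1,2-dithiole-3-thione) per kg body weight, dissolved in saturated sucrose, on days 1, 3 and 5. The 4 control rats were gavaged with 0.2 ml of the sucrose vehicle. The same days are stated for vehicle replicates 1, 3 and 4, and none for vehicle replicate 2. All 8 rats ate the same purified diet, AIN 76A.

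Nfe2l2 protein is held at a low level by Keap1 in resting cells. Electrophiles and dithiolethiones such as D3T modify Keap1, Nfe2l2 then accumulates in the nucleus, pairs with a small Maf protein and binds antioxidant response elements near its target genes. Among the textbook targets in rat liver are the aldehyde reductase that clears aflatoxin dialdehyde, microsomal epoxide hydrolase and a quinone reductase, and dithiolethiones are known in the rat for protection against aflatoxin. The regulation of Nfe2l2 itself is largely at the level of its protein, which an RNA array does not measure.

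RefSeq promoter sequence (build GRCr8) was found for 7 of the 10 genes, with 8 starts, since Ephx1 has 2. Ephx2, Akr1b1 and Ptgr1 were not in that table. The 250 bases upstream of each start were searched on both strands for the core letters of the antioxidant response element, TGACNNNGC, and for the core of the xenobiotic response element bound by the aryl hydrocarbon receptor, GCGTG. The former was found in 1 of the 8 windows and the latter in 5 of the 8, whereas 10.1% and 25.9% of all 33469 promoters in the table held them. The windows with the xenobiotic response core were those of Akr7a3, Akr7a2, Nqo1, Nqo2 and Cbr1. Of these genes only Akr7a3 and Nqo1 passed the test given below, and Nqo2 was not measured. The windows of the 3 genes with the largest rises after D3T, and that of Akr7a2, the close relative of Akr7a3 on the same chromosome and strand with 4 annotated genes or pseudogenes between, are shown 5′ to 3′ on the strand of the gene, with matches in capitals.
Akr7a3, chr5:156876471-156876720, plus strand: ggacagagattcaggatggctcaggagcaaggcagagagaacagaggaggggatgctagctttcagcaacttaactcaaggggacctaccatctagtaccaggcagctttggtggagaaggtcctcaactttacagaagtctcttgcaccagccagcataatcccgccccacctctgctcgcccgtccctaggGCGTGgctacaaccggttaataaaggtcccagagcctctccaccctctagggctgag
Akr7a2, chr5:156835339-156835588, plus strand: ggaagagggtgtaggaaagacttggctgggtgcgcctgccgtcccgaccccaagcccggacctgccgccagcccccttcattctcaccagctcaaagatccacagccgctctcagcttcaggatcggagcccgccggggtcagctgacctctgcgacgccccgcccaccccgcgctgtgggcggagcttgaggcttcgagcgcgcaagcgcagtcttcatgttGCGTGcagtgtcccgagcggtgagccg
Ephx1, chr13:95263118-95263367, minus strand: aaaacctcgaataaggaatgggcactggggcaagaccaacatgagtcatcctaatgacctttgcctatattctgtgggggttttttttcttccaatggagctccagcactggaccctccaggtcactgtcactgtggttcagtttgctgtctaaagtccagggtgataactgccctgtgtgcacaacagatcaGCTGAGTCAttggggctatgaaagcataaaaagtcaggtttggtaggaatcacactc
Nqo1, chr19:52220268-52220517, minus strand: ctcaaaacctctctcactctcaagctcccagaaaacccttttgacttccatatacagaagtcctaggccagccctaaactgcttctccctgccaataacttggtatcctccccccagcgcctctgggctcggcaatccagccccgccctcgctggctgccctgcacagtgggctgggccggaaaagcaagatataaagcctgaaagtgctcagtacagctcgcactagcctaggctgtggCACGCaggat
The capitals in Ephx1 mark the antioxidant response core, which reads TGACTCAGC on the opposite strand, lies 49 to 57 bases before the start shown and contains the letters of the AP-1 element, TGACTCA. The window before the other start of Ephx1 held neither core. In Akr7a3, Akr7a2 and Nqo1 the capitals mark the xenobiotic response core, at 53 to 57, 23 to 27 and 6 to 10 bases before the start. A match of letters does not show that a factor binds there. Elements farther upstream were not examined.

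Of the 9 measured genes, 4 rose after D3T and 0 fell (9.56% of all genes tested passed in 1 direction or the other). The aldehyde reductase gene Akr7a3 was 16.5-fold higher, the quinone reductase gene Nqo1 3.44-fold, the microsomal epoxide hydrolase gene Ephx1 3.19-fold and the alkenal reductase gene Ptgr1 1.90-fold higher. The rest of the 9 measured genes did not pass the test. The arrays were compared with limma, a linear model fitted across all probe sets, on log2 signals floored at 20.4, the 20th percentile of all values, and the threshold was a Benjamini-Hochberg adjusted p of 0.05. The filter kept the 5244 probe sets that were brightest on average, and 14 of the 17 examined here passed it. Of those 14, 4 were higher (28.6%), where 4.2% of all tested probe sets were higher, and 0 were lower, where 6.48% of all were (10.7% in either direction). At an unadjusted limma p under 0.05, 6 were higher and 2 lower. The share of all tested probe sets past that looser limit is not given. The unadjusted counts here and below therefore have no background to be set against. The median log2 fold change was 0.37 over the 9 genes, each by its brightest probe set, and 0.03 over all 3150 genes tested. That middle gene was Ephx2, whose probe sets disagreed, and over the 14 probe sets the median was 0.09, against 0.02 over all probe sets tested. The 4 D3T arrays lay wholly above the 4 vehicle arrays for 5 of the 14 probe sets, against 7.89% of all, and wholly below for 0, against 11.3% (19.2% in either direction).

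**Figure D1:**
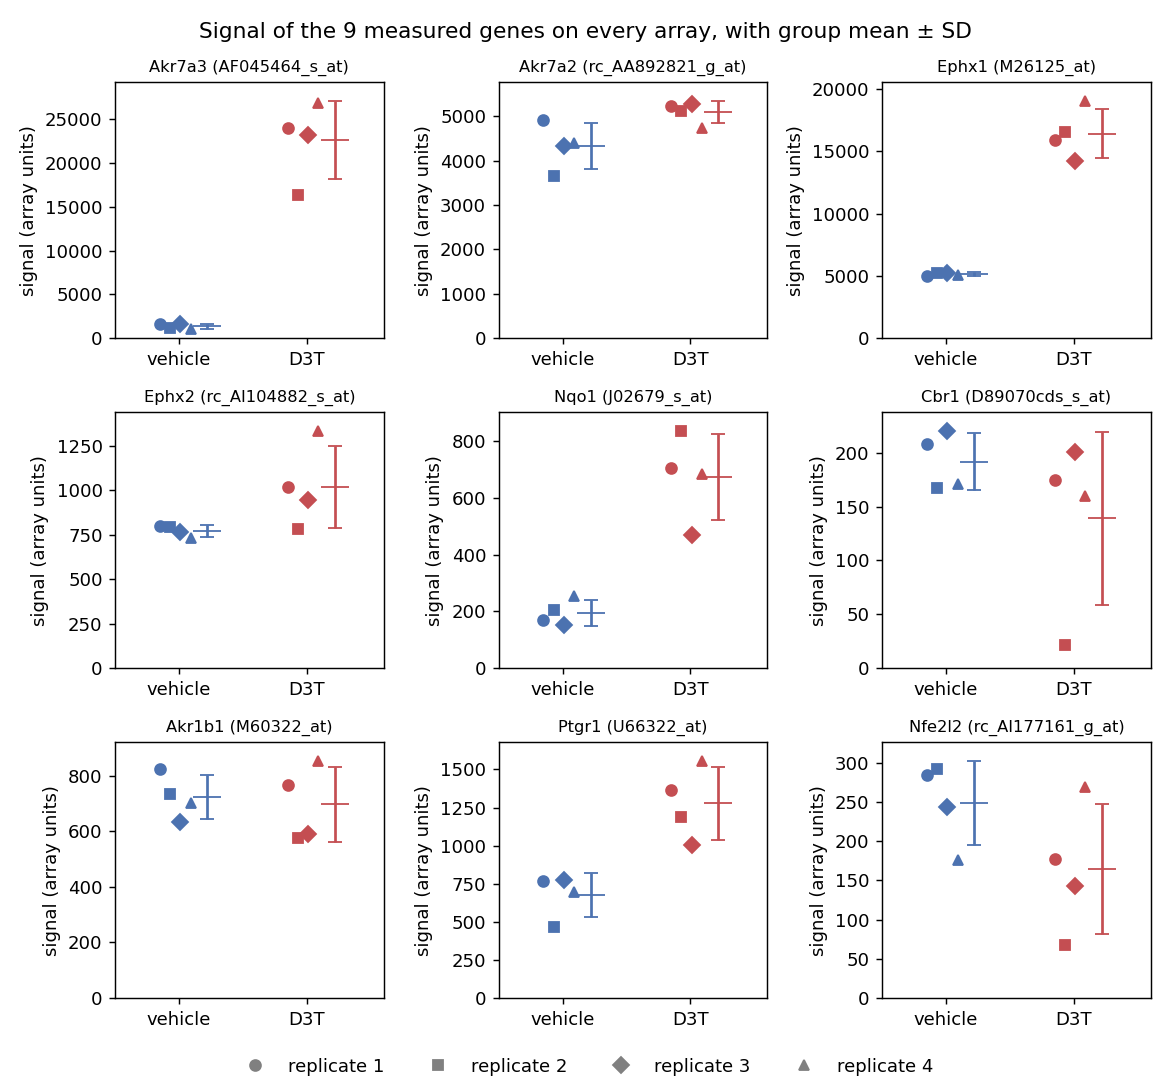
Deposited signal (array units, linear axis from 0) of the brightest probe set of each of the 9 genes in the 4 vehicle arrays (blue) and 4 D3T arrays (red), with a symbol per replicate and bars for the group mean ± SD. Akr7a3, Ephx1, Nqo1 and Ptgr1 have every D3T array above every vehicle array, whereas the groups overlap for the other 5 genes.

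Akr7a3 encodes the aldo-keto reductase that reduces aflatoxin dialdehyde to alcohols, and it had the sixth largest positive log2 fold change of the 5244 tested probe sets. Its signal was 1586, 1198, 1652 and 1058 in vehicle replicates 1 to 4 and 24002, 16348, 23253 and 26867 in D3T replicates 1 to 4. Even the lowest D3T array, replicate 2, was 9.90 times the highest vehicle array, so the groups were far apart. The group means were 1373 ± 290.4 (SD, n = 4) and 22617 ± 4461, and the log2 fold change was 4.04 ± 0.19 (SE), with a limma adjusted p of 7.97e-07. Its name (AF045464_s_at) carries the suffix that Affymetrix gives to probe sets shared by more than 1 transcript. Its signal may thus hold a contribution from a related transcript. The coefficient of variation was 21.1% in vehicle and 19.7% after D3T.

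Akr7a2 encodes the related reductase known for acting on succinic semialdehyde, and neither of its 2 probe sets passed. By the brighter (rc_AA892821_g_at) the signal was 4924, 3650, 4337 and 4396 in vehicle and 5226, 5119, 5279 and 4736 after D3T. The groups overlapped, because D3T replicate 4 lay below vehicle replicate 1. The ratio of D3T to vehicle was 1.18, with a 95% confidence interval from 0.993 to 1.41 (limma adjusted p = 0.186). In the other (rc_AA892821_at) every D3T array lay above the vehicle arrays, narrowly, since the lowest D3T value was 1.02 times the highest vehicle value, and the ratio was 1.22 (adjusted p = 0.153).

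The changes of the Akr7a genes differed from each other. Within each array the log2 signal of Akr7a2 was subtracted from that of Akr7a3, and the result was expressed relative to its vehicle mean. It was 0.04, 0.06, 0.28 and -0.38 in vehicle replicates 1 to 4 and 3.87, 3.35, 3.81 and 4.18 in D3T replicates 1 to 4. The D3T arrays stood above the vehicle arrays without overlap, by 3.80 on the log2 scale, with an SD of 0.28 in vehicle and 0.34 after D3T. An exact two-sided permutation test over all 70 assignments gave p = 0.0286, the smallest p that 4 arrays against 4 allow, and the same after adjustment over the 2 pairs of genes compared. With the other Akr7a2 probe set the difference was 3.76. This shows unequal change, not that Akr7a2 was constant.

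Ephx1 encodes microsomal epoxide hydrolase, which opens reactive epoxides of foreign compounds to diols. Its signal (M26125_at) was 4947, 5256, 5243 and 5043 in vehicle and 15907, 16553, 14221 and 19010 after D3T. The vehicle arrays were closely grouped, with a coefficient of variation of 2.97% against 12.1% after D3T, and the lowest D3T array was 2.71 times the highest vehicle array. The means were 5122 ± 152.2 (SD, n = 4) and 16423 ± 1985, and the log2 fold change was 1.67 ± 0.11 (SE, limma adjusted p = 8.31e-06).

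Ephx2 encodes the soluble epoxide hydrolase, known for hydrolysing epoxides of fatty acids, and its 4 probe sets did not move in 1 direction. The brightest (rc_AI104882_s_at) read 801.7, 791.7, 764.3 and 729.7 in vehicle and 1019, 780.5, 944.2 and 1333 after D3T, a ratio of 1.30 (95% interval 1.01 to 1.66, limma adjusted p = 0.152). Only D3T replicate 2 fell within the range of the vehicle arrays. The name of this probe set carries the suffix for shared sequence, and it was the only 1 of the 4 with a positive log2 fold change. A probe set made from the coding sequence (X65083cds_at) went the other way, from 247.2, 135.5, 309 and 243.2 to 133.5, 146.4, 165.7 and 118, a log2 fold change of -0.68 (adjusted p = 0.121). There vehicle replicate 2 was the low vehicle array, and without it the fall was 0.92 and passed (log2 fold change -0.92, adjusted p = 0.0232). The remaining pair, made from a single sequence, had wide intervals: the log2 fold changes were -0.16 (X60328_at, interval -1.19 to 0.87) and -0.38 (X60328_g_at, interval -1.21 to 0.46). Both were highest in vehicle replicate 4 and D3T replicate 2, at 311.3 and 246.1 for the former and 653.5 and 626.3 for the latter. No single direction can therefore be given for Ephx2.

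The changes of the epoxide hydrolase genes also differed. The log2 signal of Ephx1 minus that of Ephx2 by its brightest probe set, relative to the vehicle mean, lay between -0.11 and 0.06 in the vehicle arrays. It was 1.23, 1.68, 1.18 and 1.10 in D3T replicates 1 to 4, so the groups did not overlap, and the mean difference was 1.30 with an SD of 0.07 in vehicle and 0.26 after D3T (exact two-sided permutation p = 0.0286, adjusted p = 0.0286 over the 2 pairs). Against the other 3 probe sets of Ephx2 it was 1.83, 2.05 and 2.35, also with no overlap.

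**Figure D2:**
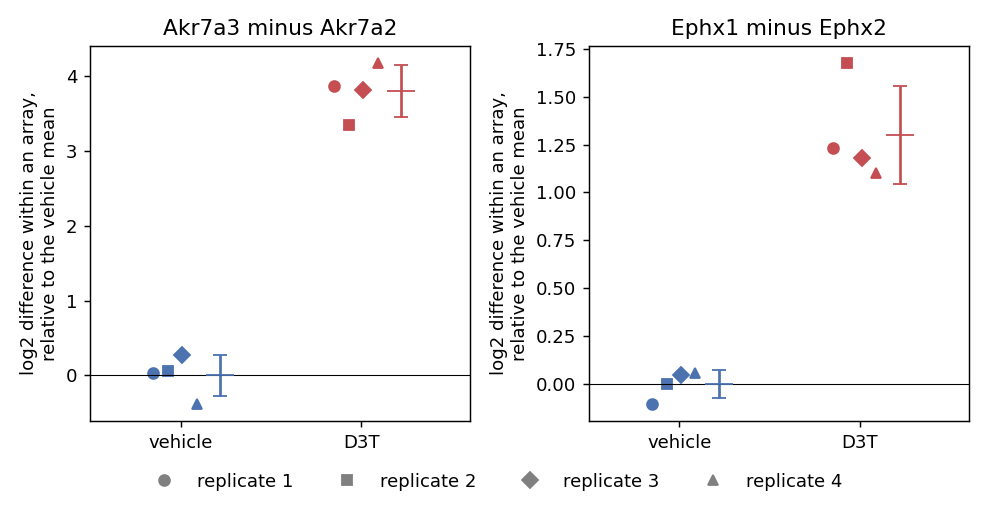
Difference in log2 signal within each array, relative to the mean of the 4 vehicle arrays, for Akr7a3 minus Akr7a2 (left) and Ephx1 minus Ephx2 (right), with a symbol per replicate and bars for the group mean ± SD. The D3T arrays (red) lie from 3.35 to 4.18 on the left and from 1.10 to 1.68 on the right, all above the vehicle arrays (blue).

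Nqo1 encodes a quinone reductase that converts quinones to hydroquinones and is a standard readout of Nfe2l2 activity. Its signal (J02679_s_at) was 170.5, 203.2, 152.4 and 255.2 in vehicle and 705.8, 836.3, 468.5 and 685 after D3T. Every D3T array exceeded every vehicle array, the lowest, replicate 3, being 1.84 times the highest vehicle value. The means were 195.3 ± 45.1 (SD, n = 4) and 673.9 ± 152.4, and the log2 fold change was 1.78 ± 0.22 (SE, limma adjusted p = 0.00115). This probe set too carries the suffix for shared sequence. The second probe set of Nqo1 (M58495mRNA_at) read between 6.30 and 11.8, under the floor in all 8 arrays, and gives no measure of change.

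Ptgr1 encodes prostaglandin reductase 1, which also reduces reactive alkenals and inactivates leukotriene B4, and the older symbol Dig1 is listed for it in RefSeq. Its signal (U66322_at) was 767.9, 465.6, 775.9 and 692.6 in vehicle and 1368, 1185, 1003 and 1555 after D3T. The groups did not overlap, with the lowest D3T array 1.29 times the highest vehicle array. The means were 675.5 ± 144.9 (SD, n = 4) and 1278 ± 237.3, and the log2 fold change was 0.93 ± 0.20 (SE, limma adjusted p = 0.0166). This was the weakest of the 4 calls. It no longer passed when no filter was applied (adjusted p = 0.0630), and it passed narrowly without D3T replicate 1 (adjusted p = 0.04997).

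The array carries control probe sets at the 3′ and 5′ ends of actin and Gapdh, whose ratio reflects RNA quality and labelling. The actin ratio ran from 1.45 to 1.59 in vehicle and from 1.17 to 1.47 after D3T (exact two-sided permutation p = 0.0571, adjusted over both ratios 0.114), and the Gapdh ratio from 1.70 to 2.18 and from 1.43 to 2.00 (p = 0.114). With the actin ratio as a covariate, 2 of the 4 genes kept their calls, Akr7a3 (adjusted p = 3.25e-04) and Ephx1 (adjusted p = 0.00124). Nqo1 then missed the threshold at a log2 fold change of 1.67 (adjusted p = 0.0802), as did Ptgr1 at 0.58 (adjusted p = 0.391). The same fit with the Gapdh ratio, chosen after seeing the data, ended only the call of Ptgr1 among these 4 genes (0.87, adjusted p = 0.0959). The part of this difference between arrays in the results was not tested further.

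Cbr1 encodes a carbonyl reductase that acts on quinones and prostaglandins. By its brighter probe set (D89070cds_s_at) the signal was 208.7, 167.4, 220.2 and 170.8 in vehicle and 174.8, 21.1, 201.1 and 159.6 after D3T. This probe set also carries the suffix for shared sequence. D3T replicate 2 stood far below all other arrays, and the rest of the D3T arrays lay in or just below the vehicle range. The log2 fold change was -0.87 ± 0.61 (SE, limma adjusted p = 0.362), and without that array it was -0.10 (adjusted p = 0.772). The other probe set (D89069_f_at) read 23.6 to 32.8 in vehicle and 14.3 to 22.5 after D3T, so every D3T array lay below every vehicle array. With 3 of the 4 D3T arrays under the floor it was at least 1.36-fold lower, and it was too dim to be tested.

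Akr1b1 encodes aldose reductase, which reduces glucose to sorbitol and also lipid aldehydes. Its signal (M60322_at) was 825.7, 736, 634.4 and 701.6 in vehicle and 767.5, 577.5, 591.6 and 853.4 after D3T. The D3T arrays spanned a wider range that enclosed the vehicle arrays. The log2 fold change was -0.07 (95% interval -0.43 to 0.29, limma adjusted p = 0.800) and its sign turned with quantile normalization (0.014). The interval excludes a rise of more than 1.22-fold and a fall of more than 1.35-fold. The second probe set of this gene (M60322_g_at) was under the floor in all 8 arrays, with signals from 7.10 to 13.8.

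Nfe2l2, the regulator, was called in neither direction. Its 2 probe sets, made from a single expressed sequence tag, both had negative log2 fold changes that did not pass. The first (rc_AI177161_at) read 188, 163.7, 276.6 and 205.2 in vehicle and 142.5, 92.1, 113.2 and 165.5 after D3T. The groups overlapped only through D3T replicate 4, which just exceeded vehicle replicate 2, and the log2 fold change was -0.71 ± 0.26 (SE, 95% interval -1.27 to -0.14, limma adjusted p = 0.0988). The second (rc_AI177161_g_at) read 284.4, 291.8, 242.9 and 175.6 in vehicle and 177.8, 67.8, 143.4 and 268.5 after D3T, and its log2 fold change was -0.73 ± 0.37 (interval -1.56 to 0.09, adjusted p = 0.219). D3T replicate 2 had the lowest value in both, as it did for Cbr1. Over all alternative settings the log2 fold changes ran from -1.19 to -0.56 for the first and from -1.38 to -0.36 for the second, and neither passed in any.

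**Figure D3:**
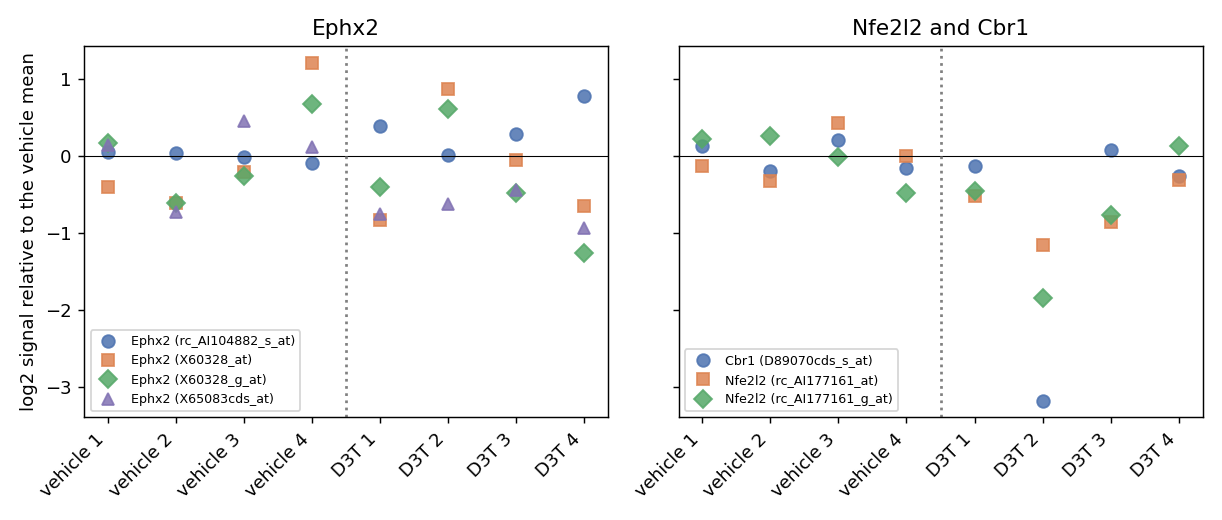
Log2 signal in each array relative to the mean of the 4 vehicle arrays, for the 4 probe sets of Ephx2 (left) and for those tested of Nfe2l2 and Cbr1 (right). The probe sets of Ephx2 disagree, at 0.79 and -1.25 for 2 of them in D3T replicate 4, and D3T replicate 2 has the lowest values of both Nfe2l2 probe sets, -1.15 and -1.85, and of Cbr1, -3.17.

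**Figure D4:**
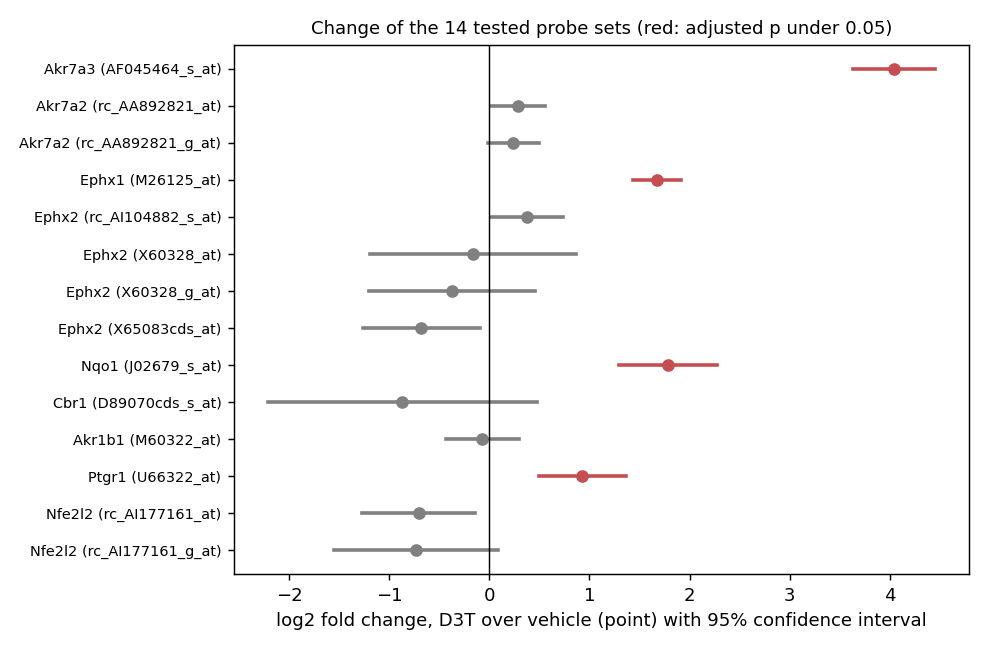
Log2 fold change of D3T over vehicle (points) with the 95% confidence interval from limma (lines) for the 14 tested probe sets, in red where the adjusted p was under 0.05. The intervals of Akr7a3, Ephx1, Nqo1 and Ptgr1 lie wholly above 0, with their lowest bound at 0.50 for Ptgr1. The intervals are not adjusted for multiple testing, so some exclude 0 without a call. Those of Akr7a2 (rc_AA892821_at, from 0.01) and Ephx2 (rc_AI104882_s_at, from 0.02) also lie above 0. Those of Ephx2 (X65083cds_at, up to -0.09) and Nfe2l2 (rc_AI177161_at, up to -0.14) lie below 0.

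Among the D3T rats the 4 raised genes did not share an order. Relative to the vehicle mean, replicate 4 was the highest for Akr7a3 (4.31 on the log2 scale), Ephx1 (1.89) and Ptgr1 (1.23), and replicate 2 for Nqo1 (2.13). Replicate 3 was the lowest for Ephx1 (1.47), Nqo1 (1.29) and Ptgr1 (0.60), and replicate 2 for Akr7a3 (3.60). Vehicle replicate 2, the rat with no stated gavage days, was the lowest vehicle array in 8 of the 14 tested probe sets: those of Ptgr1 and Akr7a2, 3 of Ephx2, 1 of Nfe2l2 and that of Cbr1. It was the highest for Ephx1 and the other Nfe2l2 probe set, and lay inside the vehicle range for Akr7a3 and Nqo1. D3T replicate 2 was the lowest D3T array in 6 of the 14, and D3T replicate 4 the highest in 7.

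The probe sets most like the leading genes were found by the root mean square difference over the 8 arrays between log2 signals, each relative to its own vehicle mean. For Akr7a3 these were probe sets of the glutathione transferase genes Gsta3 (difference 0.40) and Gstp1 (0.66) and of glutathione reductase, Gsr (1.21). That of Gsta3 was under the floor in all 4 vehicle arrays, so it was at least 12.2-fold higher, and its difference of 0.40 and its place as the nearest hold only for floored signals. By its brightest probe set Gsta3 had a log2 fold change of 5.74, against 4.04 for Akr7a3. For Ephx1 they were Gsta1 (0.12), Gstm1 (0.26) and Nqo1 (0.28), and for Nqo1 they were Ephx1 (0.28), Gsta1 (0.29) and the alcohol dehydrogenase gene Adh1c (0.31). The probe sets of Gstp1, Gsta1, Gstm1 and Adh1c found here carry a suffix for shared sequence. These are descriptions over 8 arrays that share the contrast between the groups.

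Other genes of the same pathways are given by lists that do not include the 10 genes above, each gene by its brightest tested probe set. Over all 3150 genes tested, 3.71% were higher and 5.84% lower. Of 21 tested genes for glutathione transferases and glutathione supply, 13 were higher and 0 lower (14 and 0 at an unadjusted limma p under 0.05), with a median log2 fold change of 0.56 and Gsta3, Gstp1 and Gpx2 in the lead at 53.5-fold, 29.9-fold and 4.61-fold. The probe sets of Gsta3 and Gstp1 carry the suffix for shared sequence, so related transcripts may contribute to their signals. Of 22 other enzymes of carbonyls and aldehydes, 5 were higher and 0 lower (7 and 3 unadjusted, median 0.23). These included the retinaldehyde dehydrogenase gene Aldh1a1 at 4.37-fold and the alcohol dehydrogenase genes Adh1c and Adh4 at 2.95-fold and 2.48-fold. Of 9 thioredoxin, heme and export genes taken as Nfe2l2 targets, 1 was higher and 1 lower (median 0.27). The one higher was mitochondrial thioredoxin, Txn2 (1.52-fold), whose call was lost without vehicle replicate 3 or 4 or D3T replicate 1 or 4 (adjusted p up to 0.0586). The one lower was the canalicular pump gene Abcc2 (1.91-fold), by a probe set that also carries the suffix for shared sequence.

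Of 4 tested genes of NADPH supply, which feeds the reductases above, only transketolase (Tkt) was higher, with a log2 fold change of 0.59, and 0 were lower (1 higher and 1 lower unadjusted, median 0.18). That call passed in 3 of 8 fits without 1 array and was lost without vehicle replicate 1 or 3 or D3T replicate 1, 2 or 3 (adjusted p up to 0.0759). Of 9 P450 genes of the families that oxidise aflatoxin, 2 were higher and 3 lower (median -0.25). Cyp2b2 and Cyp2a1 were 1.97-fold and 1.57-fold higher, while Cyp3a2, Cyp1a2 and Cyp3a9 were 3.28-fold, 2.28-fold and 2.01-fold lower. All of these except Cyp3a9 were read by probe sets with a suffix for shared sequence, so related transcripts may contribute. Of 5 tested regulators around Nfe2l2, 0 were higher and 1 lower (0 and 1 unadjusted, median 0.25). It was Maf, a large Maf protein known from lens and immune cells rather than a small Maf partner, at 1.91-fold lower. Keap1 had no tested probe set of its own. With the actin ratio as a covariate only Gsta3, Gstp1 and Aldh1a1 of the genes named from these lists still passed. The Gapdh ratio ended the calls of Gpx2, Adh4, Txn2, Tkt and Cyp2a1, and Txn2 and Tkt also lost theirs when no filter was applied or the intensity trend was left out.

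Liver tissue holds several cell types, and in bulk RNA fewer cells of a type and less RNA per cell cannot be told apart. The summed signal of 8 hepatocyte markers, Alb, Ttr and Apoa1 among them, ran from 129485 to 199697 in vehicle and from 173940 to 235235 after D3T. Of these 8, 1 was higher (Hnf4a, limma adjusted p = 0.0477) and 0 lower (5 and 0 unadjusted). That of 8 macrophage markers ran from 4427 to 5772 and from 3158 to 3895, and of 7 tested 1 was higher (Cd14) and 3 lower (Cyba, Cd74 and Aif1; 2 and 5 unadjusted). Aif1 was lower by its brightest probe set, while 1 of its 3 tested probe sets had the opposite sign. The hepatocyte sums overlapped between the groups, whereas the macrophage sums did not. Sums of 6 blood cell markers did not overlap either. They ran from 10769 to 15240 in vehicle and from 7208 to 10028 after D3T, mostly from the haemoglobin gene Hbb (1.42-fold lower, limma adjusted p = 0.0600). Among all tested probe sets taken singly, 11.3% had every D3T array below every vehicle array (19.2% in either direction). Such a share was not computed for sums. Of all genes tested, 3.71% were called higher and 5.84% lower. Markers of bile duct and endothelial cells had 0 of 3 and 0 of 3 tested genes past the threshold (0 and 0 unadjusted), those of stellate cells and fibroblasts 1 of 6, lower (Col3a1; 1 higher and 2 lower unadjusted), and those of blood cells 0 of 2 (1 lower unadjusted), with S100a9 under the floor in all arrays. The call of Col3a1 was narrow (limma adjusted p = 0.0399), and its groups of arrays overlapped. Marker genes were not refitted under the alternative settings. The part of cell composition in the changes of the detoxification genes was not tested.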

How the data were processed

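The authors deposited 1 linear intensity (signal) for every probe set on each array, made with MAS5 per the submitters' processing notes (version, scaling target and detection calls not given in the sources used here). Signals printed are as deposited. The 2% trimmed means of the arrays ran from 500.8 to 501.0. Precision is limited by the number of arrays. For testing, all arrays were brought to a common trimmed mean of 500, values under the 20th percentile (20.4) were raised to it, and log2 was taken. The 60% of 8740 non-control probe sets with the highest mean went into limma (version 3.58.1, under R 4.3.3; lmFit, then eBayes with its trend option), and p-values were adjusted over all 5244. Each fold change compares geometric means of floored signals and understates changes near the floor. Nothing beyond 1 array per rat is stated, so p-values measure the spread between these 8 samples.

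Names came from the platform annotation. The gene identifiers of all 9 measured genes were found in RefSeq (GRCr8) with the same symbol. The genes, lists and tests were chosen with earlier results of these data known. Named were all 10 genes, up to 3 genes per direction past the threshold in each list (the brightest where none passed), the 3 nearest patterns of Akr7a3, Ephx1 and Nqo1, and cell type markers past the threshold, the last chosen after their values were seen. The fit was tested on simulated data with known changes and independent normal noise. Those data held no differences in quality between arrays, so the test does not bear on the effect of the control ratios. A planned comparison of Nqo1 with Nqo2 and the planned protein identities were not made, as neither an Nqo2 probe set nor protein sequences were used here. Alternatives covered scaling, floor, filter, variance model, array weights, replicate block, control-ratio covariates and leaving out each array.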

Additional observations from a re-analysis of the deposited data

Results flagged for a closer look

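One value stood apart from its group. The Cbr1 probe set D89070cds_s_at read 21.1 in D3T replicate 2, against 159.6 to 201.1 in the other 3 D3T arrays. The gap to the nearest array was 0.898 of the whole range of the group on the log2 scale, above the 95% critical value of Dixon's test for 4 samples. Of 28 groups of 4 arrays examined, over the 14 tested probe sets, this was the only 1 past that value, and chance alone marks about 1 group in 20.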

How the results depend on the processing

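The calls of Akr7a3 and Ephx1 held under all 21 alternative settings (log2 fold change 3.78 to 4.19 and 1.43 to 1.74), that of Nqo1 under 20 and that of Ptgr1 under 18. The count of examined probe sets called higher stayed at 4 except for 3 with no filter, 2 with the actin ratio as a covariate and 3 with the Gapdh ratio. Without 1 array it was 4 in every fit, the total with either direction ran from 4 to 5, and the count called lower from 0 to 1, the 1 being the Ephx2 probe set X65083cds_at without vehicle replicate 2. Over all 5244 probe sets 560 were called, 220 higher and 340 lower. Those called numbered 309 with no filter (131 higher, 178 lower), 333 with no intensity trend (124 and 209), 35 with the actin covariate (24 and 11) and 177 with the Gapdh covariate (65 and 112). The largest total of any setting was 824, with array weights (323 higher, 501 lower). Without 1 array they ran from 240 (without vehicle replicate 3) to 695 (without vehicle replicate 2), the higher from 100 to 315 and the lower from 140 to 380. Other low totals were 260 without vehicle replicate 1, 279 without D3T replicate 1, 301 without vehicle replicate 4 and 307 without D3T replicate 4. With the replicate number as a block 290 were called (99 higher, 191 lower), and no call of the 9 measured genes changed. The labels do not say that the numbers pair the rats, and same-numbered arrays deviated together with correlations from -0.20 to 0.06, and 1 of the 4 vehicle arrays correlated best with the D3T array of its own number, so the block was not used. Among the genes named from the lists it ended the calls of Tkt and Cyp2a1. The cause of these changes was not tested.

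Directions turned only where no call was made. Akr1b1 had a log2 fold change of 0.014 with quantile normalization, and without 1 array it ran from -0.17 to 0.015, above 0 without D3T replicate 2 or 3. The Ephx2 probe set X60328_at had 0.46 with the actin covariate, and without 1 array it ran from -0.51 to 0.24, above 0 without vehicle replicate 4, D3T replicate 1 or D3T replicate 4, and X60328_g_at had 0.39 with the actin covariate. Without 1 array the difference of Akr7a3 minus Akr7a2 ran from 3.67 to 3.95 and that of Ephx1 minus Ephx2 from 1.17 to 1.36. The exact permutation p was 0.0286 in each of these fits after adjustment over the 2 pairs. It is the smallest p that 4 arrays against 3 allow, so a larger difference could not lower it. The difference of Ephx1 minus Ephx2 was 1.88 over the mean of all probe sets. The probe sets of Nqo1 and Akr1b1 that were under the floor in all 8 arrays gave no measure of change.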
